A study of Mus musculus with 2 samples.

Results

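The genes described are the 4 immunoglobulin light chain constant genes of the mouse that both count tables list by symbol, Igkc for the kappa chain and Iglc1, Iglc2 and Iglc3 for the lambda chain, out of 30457 genes in either table. They were chosen by symbol and not by any measured value. Reads of each gene were counted in single spleen cells of female C57BL/6J mice that carried subcutaneous Lewis lung carcinoma, a transplantable mouse tumour line, and had been given an antibody against CD4. The mice were 10 weeks old when injected, the antibody was given at 200 µg a dose on days 5 and 9, and the spleen was removed on day 12. Suspensions from 3 spleens were mixed, stored frozen and thawed, and 2000 of the cells went onto 1 BD Rhapsody cartridge, a nanowell device in which each cell meets a barcoded bead. The beads were then divided between TAS-Seq, which amplifies cDNA from a cytidine tail added by terminal transferase, and the BD WTA kit, which amplifies by random priming. Both libraries therefore share the pooled mice, the tumour, the antibody and the freezing, there is no untreated spleen, and the pool does not keep the mice apart.

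Each method gave 1 library, so no difference between the methods could be tested, and the 95% intervals given below cover counting error only. The reads were counted without molecular identifiers, so they are amplified copies and not separate molecules. After filtering, 732 TAS-Seq cells and 708 BD WTA cells remained, with no cell barcode in common, and the tables held 38656790 and 31608259 reads in all. Clustering without any kappa or lambda gene, and naming by B-cell markers such as Cd79a, Cd79b and Ms4a1, gave 432 and 392 B-like cells and 245 and 290 T-like cells.

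A B cell builds its antigen receptor from a heavy chain and a light chain, and the light chain is either kappa or lambda. The kappa locus usually rearranges first, and the lambda locus is used mainly by cells whose kappa joins failed or gave a self-reactive receptor, so that most mature cells keep a single light chain isotype, which is called isotype exclusion. In mice kappa is by far the more common isotype, and the small lambda locus pairs each constant gene with few variable genes. Rearrangement changes the variable end of the transcript. The constant gene at the other end is Igkc in every kappa cell, whereas a lambda cell may use Iglc1, Iglc2 or Iglc3.

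Igkc lies on the forward strand of chromosome 6 of build GRCm38, as a single exon at 70726435 to 70726966. The lambda genes lie on the reverse strand of chromosome 16, with constant exons at 19061618 to 19062071 for Iglc1, 19065230 to 19065681 for Iglc3 and 19198396 to 19198853 for Iglc2. The first 300 coding bases of each exon, taken from GENCODE mouse release 21, are shown 5′ to 3′ because the likeness of the 3 lambda genes bears on how far their reads can be told apart. Capitals mark the aligned positions at which Iglc1, Iglc2 and Iglc3 are not all the same, and Igkc, which was not part of that alignment, is in lower case throughout.
These stretches lie at chr6:70726435-70726734 (Igkc, forward strand), chr16:19061772-19062071 (Iglc1), chr16:19198554-19198853 (Iglc2) and chr16:19065382-19065681 (Iglc3), the last 3 on the reverse strand.
Igkc: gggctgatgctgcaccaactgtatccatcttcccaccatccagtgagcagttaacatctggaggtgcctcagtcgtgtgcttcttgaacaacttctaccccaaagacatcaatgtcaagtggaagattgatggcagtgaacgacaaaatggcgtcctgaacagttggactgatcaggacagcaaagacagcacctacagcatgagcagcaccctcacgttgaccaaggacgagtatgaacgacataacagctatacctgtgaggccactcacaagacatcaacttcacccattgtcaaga
Iglc1: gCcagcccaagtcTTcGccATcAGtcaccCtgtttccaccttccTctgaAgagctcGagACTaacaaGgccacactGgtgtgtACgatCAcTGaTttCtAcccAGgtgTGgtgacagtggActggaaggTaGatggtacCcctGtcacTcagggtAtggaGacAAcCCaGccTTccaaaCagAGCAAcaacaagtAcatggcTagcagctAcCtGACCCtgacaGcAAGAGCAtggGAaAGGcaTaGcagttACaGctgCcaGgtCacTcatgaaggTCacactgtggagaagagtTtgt
Iglc2: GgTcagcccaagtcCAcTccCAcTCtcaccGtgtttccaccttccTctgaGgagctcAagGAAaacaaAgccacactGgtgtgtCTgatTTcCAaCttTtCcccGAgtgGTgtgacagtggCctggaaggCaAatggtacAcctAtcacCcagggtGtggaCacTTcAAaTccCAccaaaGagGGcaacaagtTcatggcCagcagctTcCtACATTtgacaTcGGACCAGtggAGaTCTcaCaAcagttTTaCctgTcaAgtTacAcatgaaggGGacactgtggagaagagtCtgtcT
Iglc3: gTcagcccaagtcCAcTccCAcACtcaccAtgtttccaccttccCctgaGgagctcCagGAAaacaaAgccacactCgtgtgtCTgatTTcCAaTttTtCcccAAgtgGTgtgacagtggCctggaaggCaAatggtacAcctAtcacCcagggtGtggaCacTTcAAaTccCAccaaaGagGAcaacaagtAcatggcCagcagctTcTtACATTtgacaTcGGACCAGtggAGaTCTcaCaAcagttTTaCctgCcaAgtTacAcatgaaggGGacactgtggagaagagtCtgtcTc
Over the whole coding part, Iglc2 and Iglc3 differed at 11 positions, an identity of 96.5%, and their untranslated ends were 91.3% identical. Of the 31-base words in the Iglc2 exon, 24.8% also occurred in Iglc3, and the longest run shared in the coding part was 79 bases. How reads were divided between these genes was not tested, so the split between Iglc2 and Iglc3 is uncertain. Iglc1 was 73.2% identical to Iglc2 and 73.9% identical to Iglc3, and shared no 31-base word with either. Igkc was 51.3% to 52.7% identical to the lambda genes and shared no such word with them. The annotated Iglc2 transcript also has an upstream exon of 154 bases that lies 1345 bases before the constant exon and is not a variable gene, so reads from an unrearranged Iglc2 transcript would count as Iglc2.

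Igkc had the highest level of the 4 genes in B-like cells of both libraries, and by pooled reads the lambda genes followed as Iglc2, Iglc3 and Iglc1, although per cell Iglc3 had the higher median of 21.5 against 20 reads in BD WTA. These orders are of reads, and the 4 exons are close in length, at 452 to 532 bases. In TAS-Seq the B-like cells held a median of 360.5 Igkc reads, with the middle of the cells from 211 to 530 reads and a highest value of 71227. In BD WTA the median was 420.5 Igkc reads, the quartiles were 219 and 627, and the highest value was 113337. Most B-like cells therefore lay within a narrow band, and a few cells lay more than 100 times above it.

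Iglc2 had a median of 39 reads in TAS-Seq and 20 reads in BD WTA, with highest values of 711 and 980. Iglc3 had medians of 37 and 21.5 reads and highest values of 460 and 878. Iglc1 had a median of 0 reads in both libraries, and its highest values were 671 and 591. Iglc1 was thus found in fewer cells than its lambda neighbours, and its highest value was below that of Iglc2 in both libraries and above that of Iglc3 in TAS-Seq.

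Cells were also compared after each was thinned at random to 20000 reads, which 419 of 432 B-like cells reached in TAS-Seq and 356 of 392 in BD WTA. At that depth Igkc was found in 98.8% (97.2% to 99.6%) by TAS-Seq and 92.4% (89.2% to 94.9%) by BD WTA. Iglc2 was found in 92.8% (89.9% to 95.1%) and 77.2% (72.5% to 81.5%). Iglc3 was found in 90.2% (87.0% to 92.9%) and 74.2% (69.3% to 78.6%). Iglc1 was found in 37.7% (33.1% to 42.5%) and 27.2% (22.7% to 32.2%). With at least 1 read, the TAS-Seq share was the higher for each of the 4 genes, with intervals that did not overlap, narrowly so for Iglc1. With at least 5 reads the intervals overlapped for Igkc, at 91.2% and 89.0%, and for Iglc1, at 27.0% and 21.1%. They still did not overlap for Iglc2, at 81.1% and 68.0%, or Iglc3, at 77.1% and 64.9%. At least 1 Igkc read was also found in 81.5% and 29.7% of T-like cells at the same depth. TAS-Seq also found more genes in all, with medians of 3017 and 1630 genes in B-like cells led by Igkc, without thinning. Whether the higher shares are particular to the 4 genes was not tested. Without thinning the shares were 99.8% and 95.2% for Igkc, 94.7% and 75.5% for Iglc2, 92.8% and 74.7% for Iglc3, and 45.1% and 28.6% for Iglc1.

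**Figure D1:**
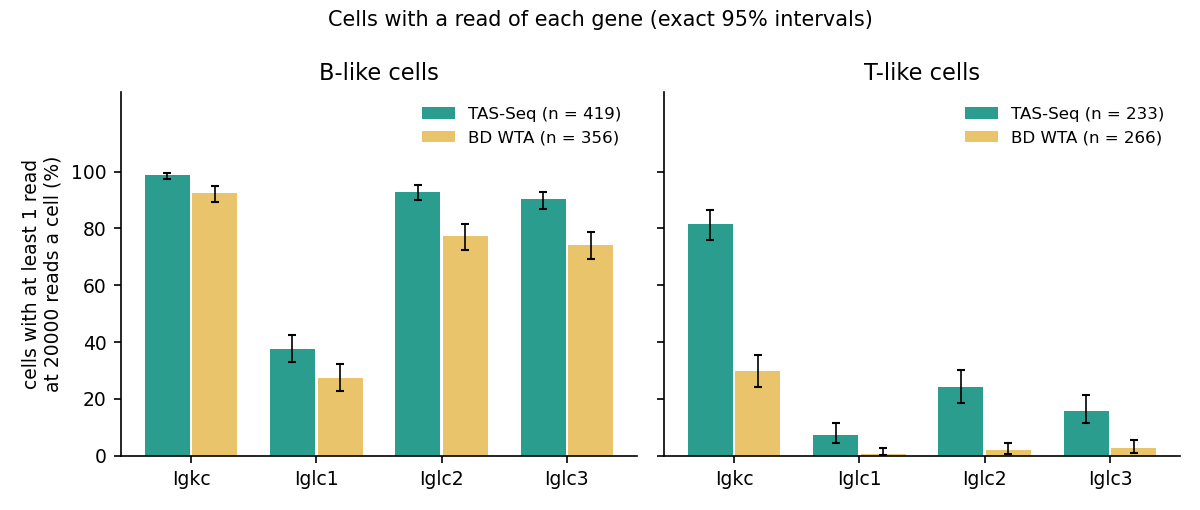
Percent of B-like (left) and T-like (right) cells with at least 1 read of each gene after thinning to 20000 reads a cell; bars are the share in 1 library and error bars are exact 95% intervals over cells. In B-like cells Igkc, Iglc2 and Iglc3 reached 74.2% or more in both libraries and Iglc1 at most 37.7%, and in T-like cells the TAS-Seq bars stood above the BD WTA bars for every gene.

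The pooled level of Igkc in B-like cells was 11159 CPM in TAS-Seq (11115 to 11204) and 29825 CPM in BD WTA (29745 to 29906), and the log2 ratio, given throughout as TAS-Seq divided by BD WTA, was -1.42. Iglc1 had 544 and 378 CPM (log2 ratio 0.52), Iglc2 had 1282 and 1031 CPM (0.31), and Iglc3 had 1030.3 and 895 CPM (0.20). Of the 4 genes, 1 differed by at least 2-fold, against 17.7% of 10002 genes with at least 10 CPM, whose median log2 ratio was 0.14. The 5 B-like cells with the most Igkc reads held 31.9% of the Igkc reads in TAS-Seq and 67.4% in BD WTA. Without the 5 cells with the most light chain reads in each library Igkc had 7889 and 10339 CPM, a log2 ratio of -0.39, and no longer differed by 2-fold.

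Some of those cells stood apart from the rest in their Igkc, Jchain and Ighm reads. In BD WTA, 4 cells gave 26.5% to 58.2% of all their reads to Igkc, with 73117, 81805, 84371 and 113337 Igkc reads. They also held 4448 to 7777 reads of Jchain, which encodes the joining chain of secreted IgM and IgA, and 8853 to 16793 reads of Ighm, the IgM heavy chain. In TAS-Seq a single such cell had 71227 Igkc reads, 27.2% of its total, with 1658 Jchain and 13322 Ighm reads. All other B-like cells gave under 10% of their reads to Igkc. The choice of these 5 cells was made with their values known, and 3 to 5 of the 6 plasma-cell markers had at least 5 reads in each. The BD WTA cells ranked 5 and 6 by Igkc also had 3 such markers, with Igkc at 0.962% and 1.07% of their reads. The TAS-Seq cells ranked 2 to 6 had 1 or 2. The 5 cells were deep, at 144979 to 275436 reads, against B-like medians of 42797 in TAS-Seq and 36082.5 in BD WTA. The TAS-Seq cell also had 9 B-cell markers with at least 5 reads.

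The lambda share of a cell, the reads of Iglc1 to Iglc3 as a percentage of all reads of the 4 genes, was computed for B-like cells with at least 20 such reads. This scored 415 TAS-Seq and 367 BD WTA cells. The share had a low hump that ran far up the scale and a separate peak near 100%. In TAS-Seq the median was 21.7%, and in BD WTA it was 11.4%. Lambda reads outnumbered Igkc reads in 44 cells by TAS-Seq, 10.6% (7.81% to 14.0%), and in 34 cells by BD WTA, 9.26% (6.50% to 12.7%). The intervals overlapped widely.

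The peak near 100% had a similar share of cells in both libraries, with intervals that overlapped. Over 90% lambda was found in 26 TAS-Seq cells, 6.27% (4.13% to 9.05%), and 22 BD WTA cells, 5.99% (3.79% to 8.94%). Of these, 8 TAS-Seq and 19 BD WTA cells were over 99% lambda. Between 50% and 90% lay 18 and 12 cells. The number close to the dividing line differed, since 42 cells (10.1%) by TAS-Seq and 6 cells (1.63%) by BD WTA lay between 40% and 60%. The lambda-leading count is therefore less certain in TAS-Seq than the count over 90%.

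**Figure D2:**
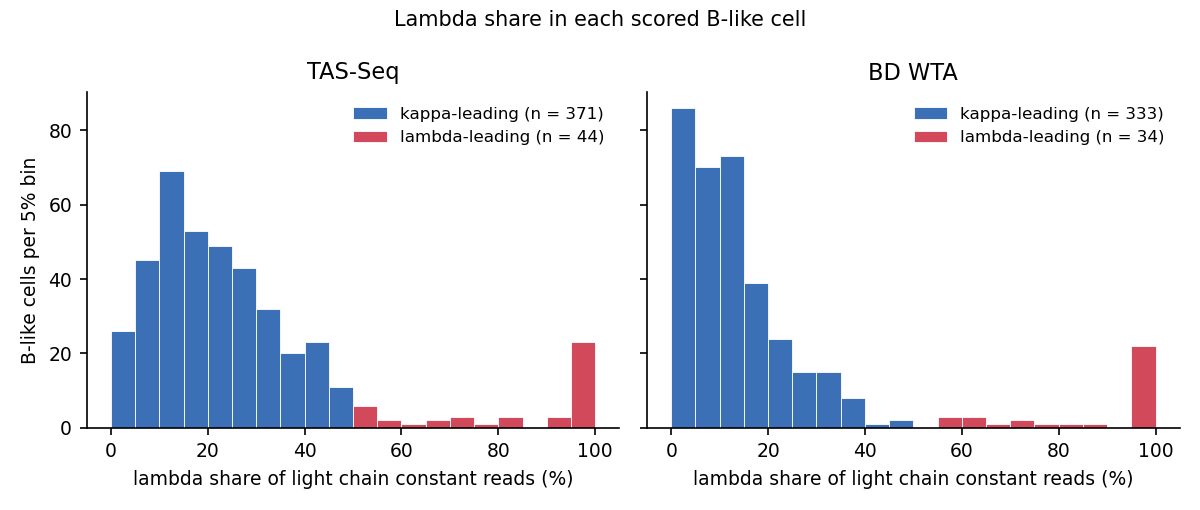
Number of scored B-like cells per 5% bin of the lambda share of light chain constant reads, for TAS-Seq (left) and BD WTA (right), coloured by the leading isotype. Both libraries show a separate peak over 95%, with 23 and 22 cells, and a broad low hump whose median is higher in TAS-Seq.

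Cells without any lambda read numbered 3 in TAS-Seq and 20 in BD WTA. The lambda share lay from 10% to 90% in 318 cells by TAS-Seq, 76.6% (72.3% to 80.6%), and in 189 cells by BD WTA, 51.5% (46.3% to 56.7%). It was under 1% in 8 and 35 cells. The difference between the libraries remained after thinning to 20000 reads, at 78.0% and 53.1%. Scrublet, which scores cells as possible doublets, marked 2 of the 371 kappa-leading TAS-Seq cells, 2 of the 333 in BD WTA and none of the lambda-leading cells. The cells from 50% to 90% lambda had a median of 43312 and 38700 reads, against 42553 and 35457 in kappa-leading cells, and none of them carried 2 or more T-cell markers with at least 5 reads. T-cell markers cannot show B cells that share a barcode, and whether Scrublet would mark such cells was not tested.

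In cells over 90% lambda, a cut that itself holds Igkc under 10% of the light chain reads, Igkc had a median of 4 reads in TAS-Seq and 1 read in BD WTA and highest values of 87 and 7. Igkc made up 2.20% of their light chain reads (1.93% to 2.50%) in TAS-Seq and 0.294% (0.194% to 0.427%) in BD WTA. This was 168 CPM (147 to 192) and 23.8 CPM (15.7 to 34.6), beside 96.6 CPM (91.5 to 102) and 40.3 CPM (36.9 to 44.0) in T-like cells, which do not make the gene. The ratio to T-like cells was 1.75 and 0.590, while the medians over cells were 109 against 81.5 CPM in TAS-Seq and 16.6 against 0 CPM in BD WTA. In BD WTA the pooled values and the medians thus ran in opposite directions, and 5 of the 290 T-like cells held 38.9% of their Igkc reads.

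In kappa-leading cells, which are cut at 50% and not at 90%, Iglc2 had a median of 39 reads in TAS-Seq (quartiles 17 and 74) and 20 in BD WTA (2 and 45). Iglc3 had medians of 41 reads (16 and 75) and 26 reads (3 and 49). At least 5 Iglc2 reads were found in 88.9% of the 371 kappa-leading TAS-Seq cells and 70.9% of the 333 in BD WTA, and at least 5 Iglc3 reads in 87.1% and 72.7%. Iglc1 had a median of 0 in both libraries, with at least 5 reads in 27.5% and 21.9%. Taken over all kappa-leading cells, Iglc2 was at 1153 and 792 CPM, which was 81.0 and 503 times its level in T-like cells. Iglc3 was at 1041 and 826 CPM, 73.1 and 152 times the level in T-like cells. The BD WTA multiples rest on only 20 Iglc2 and 69 Iglc3 reads in T-like cells. Of those reads 80% and 95.7% lay in 5 cells, so the size of these multiples is uncertain.

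**Figure D3:**
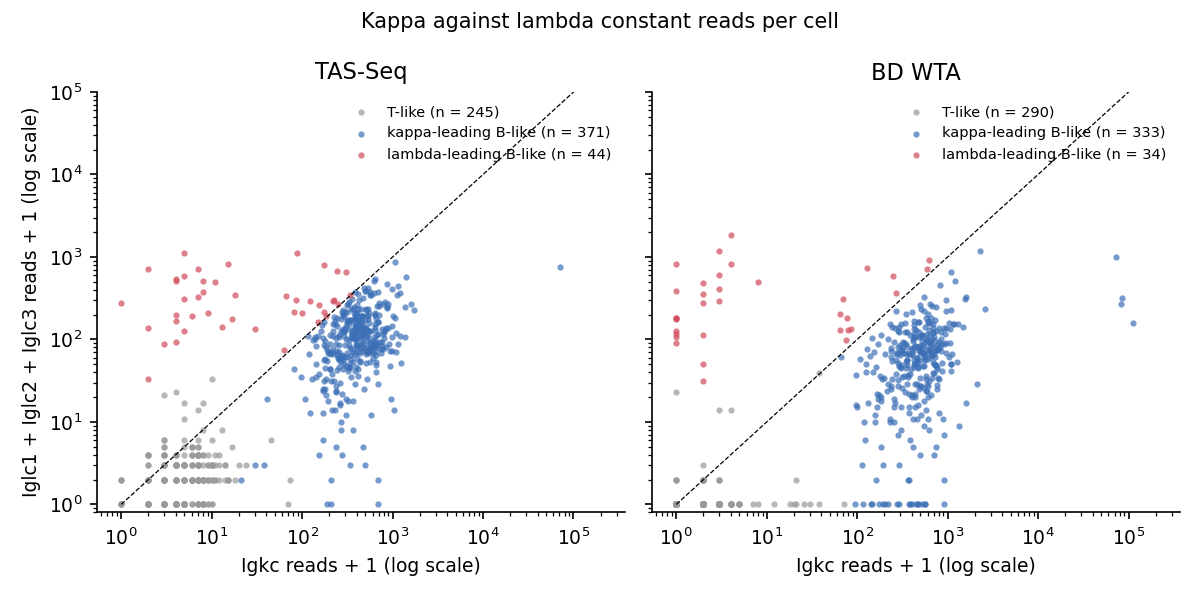
Summed Iglc1, Iglc2 and Iglc3 reads against Igkc reads in each cell, both plus 1 and on log scales, for TAS-Seq (left) and BD WTA (right); points are kappa-leading B-like, lambda-leading B-like and T-like cells, and the dashed line marks equal reads. Of the lambda-leading cells, 21 of 44 (TAS-Seq) and 22 of 34 (BD WTA) lie at 0 to 10 Igkc reads, and kappa-leading cells spread over the whole range of lambda reads, and the cells at the far right with 71227 to 113337 Igkc reads lie within the range of lambda reads of the other kappa-leading cells.

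Pooled over kappa-leading cells, the lambda genes took 16.1% of the light chain reads in TAS-Seq (16.01% to 16.28%) and 4.90% in BD WTA (4.84% to 4.96%). Without the 5 cells with the most light chain reads in each library these shares were 21.1% and 12.4%, and the median over cells was 19.5% and 10.4%. The share in BD WTA thus rested on a few cells, but under each of these settings TAS-Seq was the higher. Pooled over lambda-leading cells, Igkc took 16.6% (16.1% to 17.1%) and 14.8% (14.3% to 15.4%), nearly all of it from cells with 50% to 90% lambda, where Igkc took 34.1% and 34.3%. At least 5 Igkc reads were found in 30 of the 44 lambda-leading TAS-Seq cells and 13 of the 34 in BD WTA. With both classes cut at 50%, the other isotype therefore took 16.1% in kappa-leading and 16.6% in lambda-leading cells of TAS-Seq, and 4.90% and 14.8% in BD WTA. With cells under 10% and over 90% lambda it took 2.88% and 2.20% in TAS-Seq and 1.39% and 0.294% in BD WTA. The order of these pooled shares thus depended on the cut. As medians over cells cut at 50%, the other isotype took 19.5% in kappa-leading and 4.23% in lambda-leading TAS-Seq cells. In BD WTA these medians were 10.4% and 0.588%, the same order as the pooled shares at the 90% cut.

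Lambda levels rose less than Igkc levels across kappa-leading cells. The kappa-leading cells that gave under 10% of their reads to Igkc were divided into 4 groups of near-equal size by their Igkc level. From the lowest to the highest group the median Igkc level went from 4946 to 14905 CPM in TAS-Seq, and the summed Iglc2 and Iglc3 level from 1592 to 2083 CPM. In BD WTA Igkc went from 6783 to 21097 CPM and Iglc2 with Iglc3 from 1048 to 1754 CPM. The middle BD WTA groups had 1540 and 1395 CPM of Iglc2 with Iglc3, so that rise was not steady. The median lambda share fell accordingly, from 27.7% to 12.3% and from 15.3% to 7.76%, which follows in part from Igkc being its denominator. The 4 BD WTA cells with the highest Igkc had 555 to 3264 CPM of Iglc2 with Iglc3, and a lambda share of 0.140% to 1.33%. In the TAS-Seq cell of that kind the values were 2507 CPM and 1.05%. Lambda levels in these cells lay inside the range of ordinary kappa-leading cells, although Igkc was 265459 CPM or more. CPM is a share of the cell's reads, so the many Igkc reads of these cells lower their lambda values.

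**Figure D4:**
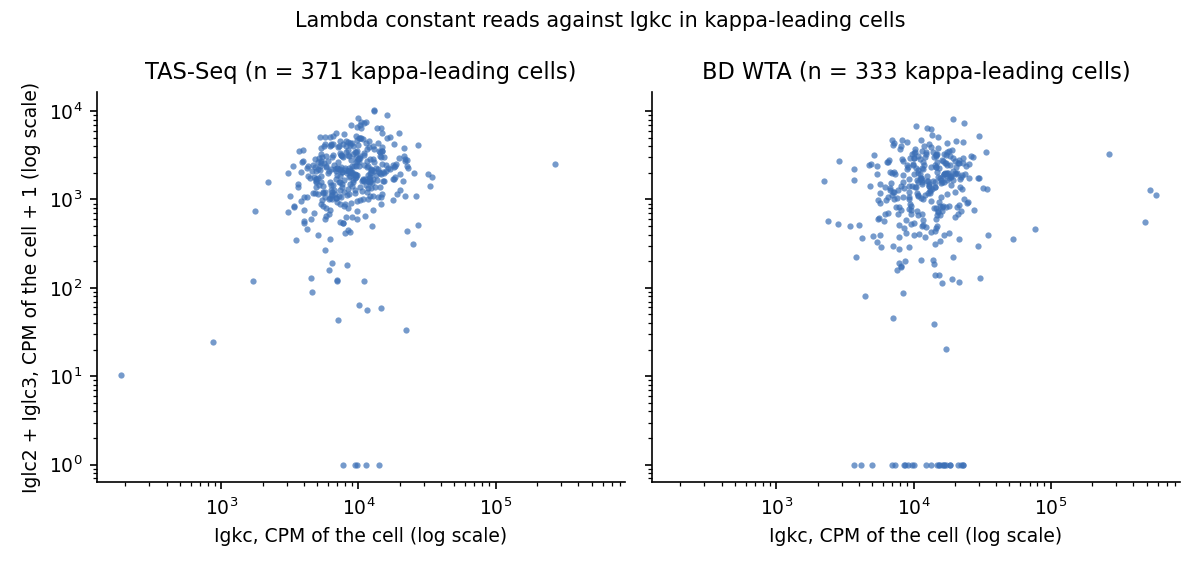
Summed Iglc2 and Iglc3 level plus 1 against Igkc level in each kappa-leading cell, in CPM of the cell and on log scales, for TAS-Seq (left) and BD WTA (right). From the lowest to the highest Igkc group the median height went from 1592 to 2083 CPM (TAS-Seq) and 1048 to 1754 CPM (BD WTA). The 1 TAS-Seq and 4 BD WTA cells with 265459 CPM or more of Igkc lie within the height of the rest.

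Iglc2 and Iglc3 often came apart in kappa-leading cells. Both had at least 5 reads in 299 of 371 cells by TAS-Seq and 183 of 333 by BD WTA. Among cells in which at least 1 of them reached 20 reads, Iglc2 was 3-fold or more above Iglc3 in 69 of 328 by TAS-Seq and 50 of 241 by BD WTA. Iglc3 was 3-fold or more above Iglc2 in 61 and 64 cells. As a description over the 371 and 333 cells, the Spearman correlation of their shares of the cell's reads was 0.17 and 0.21. The correlation of Igkc with Iglc2 was 0.14 and 0.14, and with Iglc3 0.18 and 0.04. These cells share a library and a preparation, and so weak a correlation in read counts carries little.

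Variable gene reads, which played no part in dividing the cells, followed the leading isotype. At least 5 reads of the lambda variable genes Iglv1, Iglv2 and Iglv3 together were found in 20 of the 26 TAS-Seq cells over 90% lambda, 76.9%, and in 15 of the 22 in BD WTA, 68.2%. In kappa-leading cells the numbers were 20 of 371 (5.39%) and 16 of 333 (4.80%). At least 5 reads of kappa variable genes, summed over 106 genes in TAS-Seq and 86 in BD WTA, were found in 50.4% and 35.4% of kappa-leading cells. Among cells over 90% lambda only 1 TAS-Seq cell had as many (3.85%), and in BD WTA 0 of 22 cells had any such read, which allows a share of up to 13.6% by the limit of 3 counts and up to 15.4% by the exact interval.

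The lambda constant reads of kappa-leading cells came with few lambda variable reads. For every 1000 reads of Iglc1 to Iglc3, cells over 90% lambda had 36.2 reads of Iglv1 to Iglv3 in TAS-Seq and 40.4 in BD WTA. Kappa-leading TAS-Seq cells had 7.08 such reads per 1000. Kappa-leading BD WTA cells had 42.6, but 904 of the 1152 variable reads came from a single cell, one of the 4 with the highest Igkc, and without it the value was 9.52. Thus in both libraries, apart from that cell, the ratio of variable to constant reads was lower in kappa-leading cells than in cells over 90% lambda. The variable gene rows cover the part of the transcript farthest from the tail, and these rates hold for reads and not for molecules.

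Cells between 50% and 90% lambda varied from cell to cell in which variable genes they held. Of the 18 TAS-Seq cells, 4 had at least 5 reads of lambda and of kappa variable genes, 5 had lambda variable reads alone, 1 had kappa alone and 8 had neither. Of the 12 BD WTA cells, none had both, 4 had lambda alone, 1 had kappa alone and 7 had neither. In kappa-leading cells, 14 of 371 and 5 of 333 had both.

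Each of the 3 lambda genes led in some of the lambda-leading cells. Iglc1 led in 18 of 44 cells by TAS-Seq, 40.9% (26.3% to 56.8%), and in 12 of 34 by BD WTA, 35.3% (19.7% to 53.5%). Iglc2 led in 17 cells, 38.6% (24.4% to 54.5%), and 15 cells, 44.1% (27.2% to 62.1%). Iglc3 led in 9 cells, 20.5% (9.80% to 35.3%), and 7 cells, 20.6% (8.70% to 37.9%). The intervals of all 3 genes overlapped in both libraries, so their order is not settled by these cells. Over 90% lambda, Iglc3 led in 3 of 26 and 3 of 22 cells, with intervals that again overlapped those of the other genes.

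Iglc1-led cells were mostly Iglc1, at 72.8% of their lambda reads in TAS-Seq and 74.8% in BD WTA, with 20.6% and 18.5% on Iglc2 and 6.59% and 6.77% on Iglc3. Iglc2-led cells had 61.6% and 68.4% on Iglc2. Their Iglc1 share differed between the libraries, at 24.5% and 9.38%. Iglc3-led cells had 66.1% and 65.3% on Iglc3 and 27.8% and 29.9% on Iglc2. Of the cells over 90% lambda, 14 of 26 and 10 of 22 had at least 10% of their lambda reads on both Iglc1 and Iglc2. In 5 and 6 of these cells a single gene held at least 90%. Iglc1 and Iglc2 have no 31-base word in common in their exons.

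The lambda variable genes were spread by the leading constant gene. In lambda-leading TAS-Seq cells led by Iglc1, 156 reads were on Iglv1, 51 on Iglv2 and 6 on Iglv3, and 16 of 18 cells had an Iglv1 read. In those led by Iglc2 the reads were 73, 123 and 48, and in those led by Iglc3 they were 31, 2 and 8. In BD WTA the Iglc1-led cells had 61, 44 and 0 reads, the Iglc2-led cells 52, 136 and 26, and the Iglc3-led cells 75, 59 and 0. Iglv2 was thus the variable gene with most reads in Iglc2-led cells of both libraries, and Iglv1 in the others. Single cells weigh heavily here, since 1 cell gave 21.6% of the Iglv2 reads of lambda-leading TAS-Seq cells and 40.2% of those in BD WTA.

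**Figure D5:**
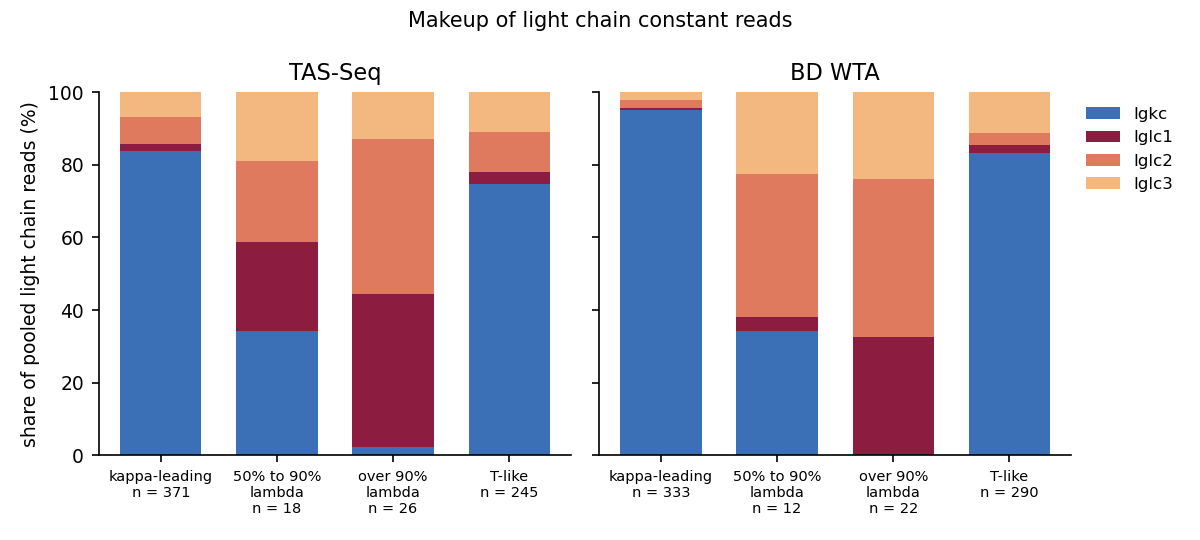
Share of pooled light chain constant reads on Igkc, Iglc1, Iglc2 and Iglc3, in percent, for kappa-leading, 50% to 90% lambda and over 90% lambda B-like cells and T-like cells of TAS-Seq (left) and BD WTA (right); n is the number of cells. Iglc1 makes up 42.3% and 32.4% of reads in cells over 90% lambda and 1.84% and 0.624% in kappa-leading cells, while Iglc2 and Iglc3 are seen in every group.

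Where Iglc1 led the lambda reads of a kappa-leading cell, variable reads were more frequent in TAS-Seq. Among kappa-leading cells with at least 20 lambda reads, Iglc1 led in 18 of 337 by TAS-Seq and 17 of 260 by BD WTA, while Iglc2 led in 163 and 105 and Iglc3 in 156 and 138. A read of Iglv1, Iglv2 or Iglv3 was found in 11 of the 18 Iglc1-led TAS-Seq cells, against 19 of 163 and 20 of 156 of those led by Iglc2 and Iglc3. In BD WTA the numbers were 3 of 17, 8 of 105 and 13 of 138. The split was chosen with the values known.

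Genes of lambda-leading and kappa-leading cells were compared by pooled CPM, without a test. Of 8888 genes with at least 10 CPM in either group of cells in each library, 0.371% were at least 2-fold higher in lambda-leading cells of both libraries and 4.05% were at least 2-fold lower. By the rule used, a higher gene also needed reads in at least 5 lambda-leading cells of each library. A lower gene did not, so these shares cannot be set against each other. In single libraries, 11.5% and 18.1% were higher and 13.3% and 21% lower, so a change of this size in 1 library was common. Among genes found in at least 5 lambda-leading cells, Iglv2 ranked first by its difference in both libraries, at 76.8 CPM in lambda-leading and 1.94 CPM in kappa-leading TAS-Seq cells and 133 and 10.8 CPM in BD WTA. Iglc1 and Iglc2 were also in the list, but they had been used to divide the cells. Lgals1, which encodes a galectin, had log2 ratios of 2.57 and 1.61, and 63.9% and 68.0% of its reads in lambda-leading cells came from a single cell. Dnase1l3, a secreted nuclease, had log2 ratios of 1.58 and 2.14, with 67.1% and 57.4% from a single cell.

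On the lower side, Igkj5, a kappa joining segment, was found in 22.9% of kappa-leading and 4.55% of lambda-leading TAS-Seq cells, and in 3.003% and 0 of 34 in BD WTA. Jchain was at 92.2 against 0.873 CPM in TAS-Seq and 1662 against 150 CPM in BD WTA, with 98.9% of its reads in lambda-leading BD WTA cells coming from 1 cell. The high kappa cells described above held most of its reads in kappa-leading cells. Gcnt1, Zxdb and Kctd13 completed the 5 largest. Gcnt1 was found in 7.55% and 5.11% of kappa-leading cells and in 0 of 44 and 0 of 34 lambda-leading cells, which by the limit of 3 counts allows shares of up to 6.82% and 8.82%, and Kctd13 in 8.09% and 3.30% against the same zeros. Zxdb was found in 11.1% and 6.61% against 1 cell each. These genes were picked as the largest differences among 8888, so their values are descriptions.

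Of the 7 lambda variable and joining genes listed, 4 passed 10 CPM in both libraries, and 2 of those, Iglv2 and Iglj1, were at least 2-fold higher in lambda-leading cells of both. Over all 8888 genes the share was 0.371%. That share also required reads in at least 5 lambda-leading cells of each library, which Iglj1 did not reach in BD WTA. Iglv1 had log2 ratios of 3.66 and 0.90, and Iglv3 had 1.72 and 0.19. Iglj1, a lambda joining segment, had 2.96 and 1.32, with reads in only 4 lambda-leading BD WTA cells. Of the 113 kappa variable and joining genes, 5 passed in both libraries and all 5 were at least 2-fold lower in lambda-leading cells. Among all 8888 genes 4.05% were so in both libraries. Igkv1-117 was found in 15.6% of kappa-leading and 11.4% of lambda-leading TAS-Seq cells, and in 5.11% and 0 of 34 in BD WTA. Igkj1 was found in 35.0% and 2.27%, and in 6.91% and 0 of 34. A gene could pass the filter through the group in which it was high, so these counts describe the genes and do not support the division.

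The partners of the light chain in the receptor differed by less than 2-fold between isotypes. Ighm, the IgM heavy chain, was at 4351 CPM in kappa-leading and 3697 CPM in lambda-leading TAS-Seq cells, and 7934 and 5887 CPM in BD WTA. Ighd, the IgD heavy chain, was at 1488 and 1032 CPM, and 1583 and 1165 CPM. Cd79a and Cd79b, which carry the signal of the receptor, had log2 ratios of lambda over kappa of -0.30 and -0.25 in TAS-Seq and -0.10 and 0.14 in BD WTA. Of the 8 heavy chain constant genes, 3 passed 10 CPM in both libraries and 0 differed by 2-fold in the same direction. Over all 8888 genes, 0.371% were higher and 4.05% lower in both libraries. In BD WTA Ighg3 was at 59.1 CPM in lambda-leading and 27.1 CPM in kappa-leading cells, from 3 and 6 cells, whereas in TAS-Seq it was at 0 and 7.32 CPM, from 0 and 10 cells. Igha was at 11.2 and 0.274 CPM in BD WTA, from 2 cells each, and at 11.3 and 10.9 CPM in TAS-Seq.

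Across B-like cells thinned to 20000 reads, the genes most like Igkc by mean Spearman correlation over both libraries were Cd79a (0.33 over 419 cells by TAS-Seq and 0.22 over 356 by BD WTA), Ighd (0.21 and 0.27), Ighm (0.23 and 0.25), Igkj2 (0.27 and 0.20) and Cd55 (0.27 and 0.18). For the summed lambda genes they were Iglv1 (0.39 and 0.30), Ighm (0.27 and 0.32), Iglv2 (0.33 and 0.25), Cd79b (0.22 and 0.24) and Iglj1 (0.27 and 0.20). The most opposite gene was Fcer1g, a signalling chain of Fc receptors in myeloid cells, for both Igkc (-0.32 and -0.35) and the lambda genes (-0.32 and -0.33). Il1b, an inflammatory cytokine of myeloid cells, was also among the most opposite to Igkc (-0.22 and -0.30). The cells correlated include B-like cells with under 20 light chain reads, many of which carried markers of other cell types, and the part of these cells in the order was not tested. These correlations were computed for 9745 genes over cells of the same library and are descriptions. Igkc with Iglc1 had -0.11 and -0.04, with Iglc2 0.12 and 0.14, and with Iglc3 0.23 and 0.16, while Iglc2 with Iglc3 had 0.26 in both.

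Not all cells named B-like carried the genes. Under 20 light chain reads were found in 17 TAS-Seq and 25 BD WTA cells. Of these, 14 and 22 had no B-cell marker with at least 5 reads, and all 17 and 19 of the 25 had at least 2 markers of monocytes, neutrophils, dendritic cells, T cells or NK cells at that level. Neutrophil markers were met in 10 cells of each library. They lay mainly in the B-like cluster led by Marcks and Plac8 (15 of 17 and 19 of 25), so that this cluster held other cells besides B cells and the label B-like goes against the markers of most of these cells. They entered no isotype count, and they held 108 and 24 light chain reads in all.

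By cluster, the lambda-leading share was 9.05%, 12.6% and 11.1% in the 3 TAS-Seq clusters and 8.42%, 7.63% and 17.4% in those of BD WTA, the last of each being the cluster led by Marcks and Plac8. Its BD WTA interval of 7.82% to 31.4% overlapped those of the other clusters. Kappa-leading cells of that cluster had a median lambda share of 25.8% in TAS-Seq, against 18.6% and 17.9% in the others, and of 11.4% in BD WTA, against 10.9% and 10.1%. Without it the lambda-leading shares were 10.5% and 8.10%.

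T-like cells, which have no use for light chains, still held reads of them, more so in TAS-Seq. At 20000 reads, which 233 of 245 and 266 of 290 cells reached, at least 1 Igkc read was found in 81.5% of TAS-Seq (76.0% to 86.3%) and 29.7% of BD WTA T-like cells (24.3% to 35.6%). Without thinning these were 96.7% and 49.3%, at median depths of 52534 and 42045 reads. Most such cells held very little, since the shares with at least 5 reads at 20000 reads were 4.72% and 2.63%. Iglc2 was found in 24.0% (18.7% to 30.1%) and 1.88% (0.613% to 4.33%), Iglc3 in 15.9% (11.4% to 21.2%) and 2.63% (1.06% to 5.35%), and Iglc1 in 7.30% (4.31% to 11.4%) and 0.752% (0.0912% to 2.69%). These shares in cells that should lack the genes are the background against which the shares in B-like cells are to be read, and the TAS-Seq and BD WTA intervals did not overlap for any of the 4 genes. How many of all genes behaved so in T-like cells was not tested.

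The summed lambda share of the reads in T-like cells was near that of ordinary B-like cells. Lambda genes took 25.3% of the 1799 light chain reads of TAS-Seq T-like cells (23.4% to 27.4%), and 26.4% in B-like cells without the 5 highest. In BD WTA they took 16.7% of 615 reads (13.9% to 19.9%), and 18.0% in B-like cells without the 5 highest. With those 5 cells included, the B-like shares were 20.4% and 7.17%. The T-like shares thus lay nearer to those of B-like cells without the 5 highest. How these reads reached the other cells was not tested.

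Of all light chain constant reads in filtered cells, 0.722% lay outside B-like cells in TAS-Seq (0.693% to 0.753%) and 0.215% in BD WTA (0.203% to 0.228%). Without the 5 highest B-like cells of each library these were 0.976% and 0.580%. T-like cells held 7.34 such reads each on average in TAS-Seq and 2.12 in BD WTA. The 55 cells of an unnamed TAS-Seq cluster led by Ccl5, Il2rb and Nkg7 held 7.56 each. The 26 NK-like cells of BD WTA held 610, of which 550 were in a single cell that also had at least 5 reads of all 9 B-cell markers and was not marked as a doublet. Its class therefore goes against its markers, and the mean of 23.5 reads per NK-like cell rests on it.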

How the data were processed

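Single spleen cells were measured in 1 TAS-Seq and 1 BD WTA library, grouped by the labels. The deposited values are raw read counts for every gene in every cell barcode, which the authors made without molecular identifiers and did not normalize. Per the submitters' processing notes, cutadapt 2.10, Bowtie2 2.4.2 and R 3.6.3 were used with GRCm38 and GRCh38 named as builds, while the methods of the study describe mapping to mouse transcript sequences. Mapping to transcripts may divide reads of near-identical genes such as Iglc2 and Iglc3, and read counts carry amplification. The methods also describe subtracting background reads, and whether this was done for these tables is not given in the sources used here, so low values may have been lowered. Whether these are the libraries of the spleen comparison in the study is not given in the sources used here.

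Barcodes with at least 500 genes and at most 25% mitochondrial reads were kept, 732 of 736 and 708 of 716. Each library was clustered with Seurat 5.3.0 in R 4.3.3 (20 principal components, resolution 1) without Igk and Igl genes, and a cluster took the name of a type with 3 or more raised markers and no rival type, a rule set after the clusters were seen. Markers covered B, T, NK and plasma cells, neutrophils, monocytes or macrophages, dendritic cells and erythroid cells, and only B-like, T-like and NK-like clusters were named. Scrublet in scanpy 1.11.5 marked 3 and 4 doublets, which were kept in the main values. Cells were thinned with a fixed seed to 20000 reads where depth mattered. Shares carry exact Clopper-Pearson intervals and CPM exact Poisson intervals from scipy 1.17.1. Ratios of CPM used a pseudocount of 1 CPM and a minimum of 10 CPM. Positions and sequences came from GENCODE mouse release 21 on GRCm38. The counting and thinning were tested on simulated data.

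The genes, lists and tests were chosen with earlier results of these data known. Named genes are the 4 constant genes, up to 4 genes a list with the highest value of the lower library's CPM, the 5 most correlated genes, and the 5 genes with the largest lambda to kappa difference in each direction in both libraries. Alternatives covered the cell classes, doublets, read minimum, depth, cut-offs, highest cells and scaling, including TMM factors from edgeR 4.0.16. With 1 library per method no test was possible. Values of 1 gene of the follicular list are not reported here.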

Additional observations from a re-analysis of the deposited data

Results flagged for a closer look

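The 4 TAS-Seq and 8 BD WTA barcodes removed by the filters were used in no comparison, and both sets held light chain constant reads above the 3 that a count of 0 allows. The TAS-Seq barcodes held 17 such reads, of which 9 were Igkc and 8 were lambda, and the BD WTA barcodes held 298, of which 279 were Igkc and 19 were lambda.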

How the results depend on the processing

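Values here are TAS-Seq minus BD WTA in percentage points for shares and log2 ratios for levels, in the order Igkc, Iglc1, Iglc2 and Iglc3. Of 88 alternatives, 44 stayed within the counting intervals of both libraries, 42 moved past at least 1 of them and 2 reversed a difference whose intervals had not overlapped. The share led by Iglc1, whose intervals overlapped, also changed sign at the 90% cut, from 5.61 to -7.69, and is counted as staying within them. With cells classed by their own markers, the reads outside B-like cells went from 0.507 to -13.1, because a BD WTA cell with 81805 Igkc reads had only 2 B-cell markers. With at least 20 Igkc reads, the share of T-like cells went from 51.8 to -0.699, and with at least 2 or 5 reads, 10000 reads a cell or no thinning it was 42.2, 2.09, 35.5 and 47.4. The lambda-leading share moved only when set at over 90% (0.271, from 1.34), and the share led by Iglc1 stayed within its intervals under all 8 alternatives tried, from -7.69 to 10.1. The mixed share, 25.1, was 17.6 from 5% to 95% and 20.8 from 25% to 75%. The lambda share of reads in kappa-leading cells, 11.2, was 10.2 by cell markers, 11.0 after thinning, 1.48 at the 90% cut, 8.65 without the 5 highest cells, and, in alternatives added after seeing the data, 10.3 without the cluster led by Marcks and Plac8 and 9.12 as a median over cells. The kappa share in lambda-leading cells, 1.78, was 0.542 after thinning, 1.90 at the 90% cut and 3.06 without that cluster. Reads outside B-like cells came to 0.396 without the 5 highest cells. Levels were -1.23, 0.51, 0.27 and 0.13 by cell markers, -0.39, 0.64, 0.31 and 0.18 without the 5 highest cells, -1.55, 0.39, 0.18 and 0.068 with TMM factors, which shift every ratio by -0.14, and -0.82, 0.55, 0.42 and 0.36 with cells weighted equally. They were -1.40, 0.53, 0.33 and 0.21 over all barcodes and -1.45, 0.81, 0.33 and 0.22 without the cluster, and Igkc was -1.42 without doublets. Where no construction is named, the cause was not tested.

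No paired analysis was possible because there is a single library for TAS-Seq and a single one for BD WTA. Counting intervals do not cover the spread between preparations, mice or amplifications, and the 26 and 22 cells over 90% lambda limit every statement on lambda cells.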

Other observations

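Genes of B-cell states were compared between lambda-leading and kappa-leading cells, without a test. Of the 4 marginal zone genes, all passed 10 CPM in both libraries and 1, Cd9, was at least 2-fold higher in lambda-leading cells of both, at 94.7 against 44.3 CPM in TAS-Seq and 111 against 47.9 CPM in BD WTA. Dtx1, which acts in Notch signalling, had log2 ratios of 1.00 and 0.65, Cd1d1 had 1.04 and 0.77, and Cr2, complement receptor 2, had -0.22 and -0.08. Of the follicular genes, Fcer2a, the low-affinity IgE receptor, had -0.52 and -0.64, and Ccr7 had -0.28 and 0.93. Over all 8888 genes, 0.371% were at least 2-fold higher in both libraries, counting only genes with reads in at least 5 lambda-leading cells of each.

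Of the 7 plasma cell genes, 5 passed in both libraries and 1, Jchain, was at least 2-fold lower in lambda-leading cells of both, against 4.05% of all 8888 genes. Mzb1 had log2 ratios of 0.19 and 0.22, Xbp1 had -0.60 and -0.99, and Irf4 had -0.02 and -0.88. Of the 7 genes of the surrogate light chain and of rearrangement, 2 passed in both. Vpreb3 had -0.23 and -1.01 and was found in 34.2% and 28.2% of kappa-leading cells. Rag2, a subunit of the recombinase, had -0.19 and -0.20 and was found in 30.5% and 5.41% of kappa-leading cells. Dntt, which adds bases at joins, was at 1.10 and 0.905 CPM in B-like cells, and no read of Vpreb1 or Vpreb2 was found in TAS-Seq B-like cells.

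The lambda pseudogene Iglc4, which belongs to no comparison above, had 93 reads in 6 TAS-Seq B-like cells and 46 reads in BD WTA, of which 44 were in a single cell.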
